A study of Mus musculus with 6 samples.

Results

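The collagen and laminin chains of mouse liver were the 55 genes of the deposited table whose name is Col, a number, the letter a and a number, or Lama, Lamb or Lamc with a number, each with a protein-coding transcript type and none an antisense or pseudogene row. They made up 44 collagen and 11 laminin genes of 55401 genes in all. Of these, 12 reached a mean of 1 FPKM (fragments per kilobase of transcript, scaled to library size) over the 6 libraries, 9 collagens and 3 laminins, and 43 did not. RNA-seq of poly(A) RNA was made from livers of C57BL/6 mice in 3 groups of 2 libraries. In the COS+APAP group (replicates 2 and 3), mice received costunolide (COS), a plant sesquiterpene lactone, at 20 mg/kg. It was given first 12 h before and again 40 min before acetaminophen (APAP, paracetamol), which was given at 400 mg/kg into the peritoneum. The APAP group (replicates 1 and 3) received the same APAP dose alone, which was left to act for 6 h in both groups, and the control group (replicates 1 and 3) is labelled control only. The labels give no genetic change, age or sex. Nothing states that the 2 libraries in a group are different animals, and p-values then measure only the spread between libraries, which may be technical.

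Collagens are triple helices of 3 chains. Fibril-forming collagens carry the tensile strength of connective tissue, fibril-associated collagens sit on these fibrils, and type IV collagen forms the sheet of basement membranes. Laminins, the other polymer of basement membranes, join an alpha, a beta and a gamma chain into a cross. In liver, the stellate cells that lie beside the sinusoids and the fibroblasts of the portal tract are the main source of fibrillar collagen. Endothelial cells and bile ducts make basement membrane, and hepatocytes make type XVIII collagen, whose end fragment is endostatin. Fibrillar collagen is known mostly from the scars of chronic injury.

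The libraries held 71115112 to 76669799 estimated counts, and the hepatocyte marker *Alb* stood at 26619 to 39526 FPKM. The labels' extraction text mentions adipose tissue. Of the 5 adipose markers, *Adipoq* and *Plin1* were below a mean of 1 FPKM, *Lep* was listed at 0 in all libraries, and *Cfd* had 0.05 and 0.00 FPKM in COS+APAP, 4.47 and 0.69 FPKM in APAP, and 0.93 and 0.08 FPKM in control. *Fabp4*, also known from capillary endothelium and macrophages, had 5.49 and 4.83 FPKM in COS+APAP, 6.27 and 4.95 FPKM in APAP, and 1.67 and 2.32 FPKM in control, and rose by 1.63 (log2) in APAP against control (adjusted p = 0.00375) and by 1.53 in COS+APAP against control (adjusted p = 0.0108). The prefix in the titles is 2 for COS+APAP and 1 for APAP and control, and what it stands for cannot be told apart from COS. The protocol text assigns the pretreatment to samples numbered 5 and 6, which in accession order are titled model and labelled APAP. The groups here follow the titles and treatment labels. Under the protocol text the COS+APAP and APAP names would swap, and with them the sign of COS+APAP against APAP. The results of APAP against control and of COS+APAP against control would then trade places.

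By level, *Col18a1* alone made up most of the set. It stood at 59.54 and 60.85 FPKM in COS+APAP, 70.49 and 76.97 FPKM in APAP, and 71.64 and 52.57 FPKM in control, or 55.4% to 71.7% of the summed FPKM of all 55 chains in a library. Levels of *Col18a1* overlapped between treated and control livers. Its log2 fold change was 0.38 ± 0.17 (SE) in APAP against control (adjusted p = 0.125), -0.27 ± 0.17 in COS+APAP against APAP (adjusted p = 0.297) and 0.11 ± 0.17 in COS+APAP against control (adjusted p = 0.686), which turned to -0.06 without scaling factors. Adjusted p-values are over all genes tested, and are from edgeR unless DESeq2 or limma is named. Without control replicate 1 the value in APAP against control passed (adjusted p = 0.0272). Every other chain had a mean below 5 FPKM, led by *Col4a1* (4.68), *Col5a3* (4.59), *Col4a2* (4.58) and *Col27a1* (3.89). The threshold of 1 FPKM fell within a run of close values. *Lamb2* lay just above it with a mean of 1.04 FPKM, and *Col1a1* (0.973), *Col15a1* (0.93), *Col1a2* (0.858), *Lamc3* (0.765) and *Lama5* (0.733) lay just below. Of the 43 chains below it, 24 had a mean under 0.1 FPKM and 4 had a count of 0 in each library. Of the 12 above it, 6 had a group mean of at least 1 FPKM in all 3 groups, 3 in 2 groups and 3 (*Lamc1*, *Lamb3* and *Col13a1*) in the APAP group alone, so that these passed the filter through the group where they were high.

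**Figure D1:**
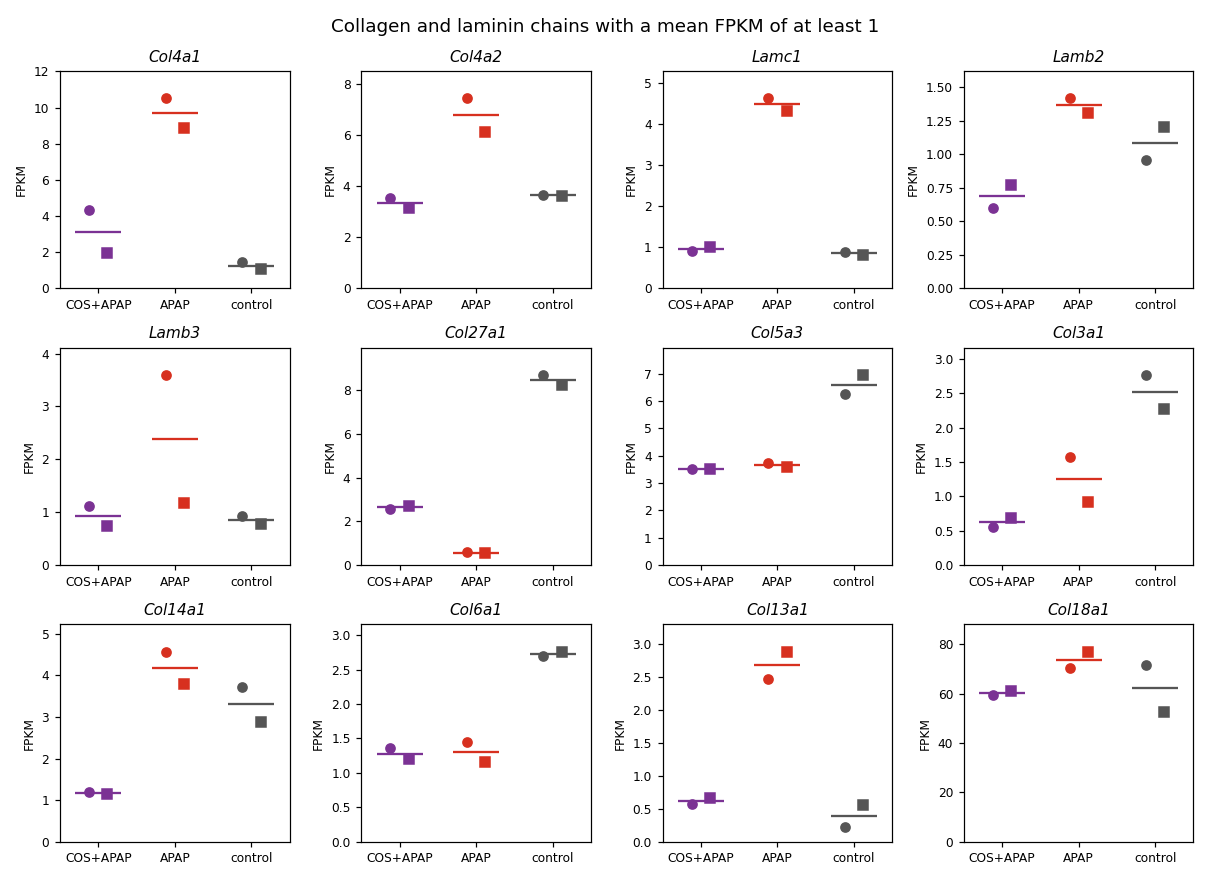
FPKM of the 12 chains with a mean of at least 1, by group (COS+APAP, APAP, control). Each point is a library (circles, the lower replicate number of the group; squares, replicate 3) and each bar the mean of the group's 2 libraries. Col27a1 is lowest in APAP and highest in control, and Lamc1 is highest in APAP at 4.64 and 4.32 FPKM.

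In APAP against control, 4 of the 12 tested chains rose and 3 fell, where 45.4% of all 10051 genes tested were called (23.3% higher and 22.1% lower). The median log2 fold change of the 12 was 0.48, beside -0.0024 over all genes tested. COS+APAP against APAP gave 1 chain higher and 6 lower, where 22.4% of all genes were called (11.2% higher and 11.1% lower). There the median of the chains was -1.001, beside 0.0057 over all genes tested. COS+APAP against control gave 5 chains lower, where 21.0% of all genes were called (10.7% higher and 10.3% lower), with a median of -0.24 beside 0.018. No chain was called higher in COS+APAP against control by edgeR, 1 had an unadjusted p under 0.05 and DESeq2 called 1. Without the 3 chains that passed the filter through the APAP group alone, a choice made after seeing the data, 2 of 9 rose and 3 fell in APAP against control (median 0.38), 1 rose and 4 fell in COS+APAP against APAP (-0.98), and 5 fell in COS+APAP against control (-0.75). The comparisons share libraries and are not independent of each other. The count of 7 chains in COS+APAP against APAP became 4 without COS+APAP replicate 2 and 3 without COS+APAP replicate 3 or APAP replicate 1. The count of 5 in COS+APAP against control became 2 without either COS+APAP library and 3 without either control library. The shares of all genes called higher depended on the scaling. Without scaling factors, APAP against control gave 1869 genes higher and 2814 lower in place of 2342 and 2219, and COS+APAP against control 706 and 1644 in place of 1073 and 1036. Upper quartile scaling gave 1567 genes higher and 930 lower in COS+APAP against APAP in place of 1130 and 1119.

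**Figure D2:**
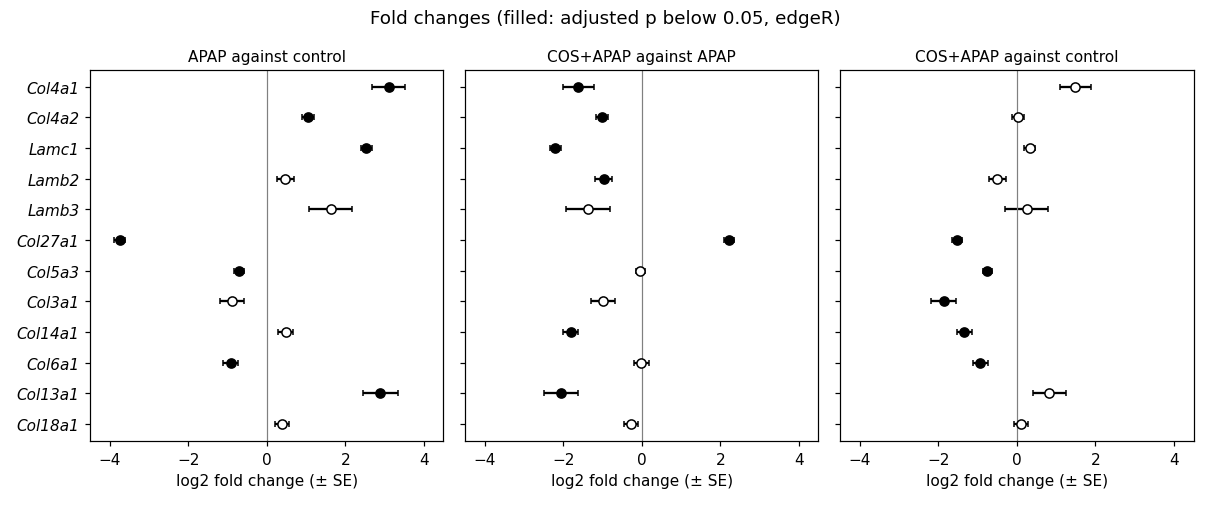
Log2 fold change (± SE, edgeR) of the 12 chains in APAP against control, COS+APAP against APAP and COS+APAP against control. Filled points have an adjusted p below 0.05. Col4a1, Col4a2, Lamc1 and Col13a1 lie right of 0 in the first panel and left of it in the second, and Col27a1 does the opposite.

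Both chains of the common type IV collagen, *Col4a1* and *Col4a2*, rose after APAP and fell in COS+APAP against APAP. The genes lie head to head on mouse chromosome 8, *Col4a1* at 11198423 to 11312826 on the minus strand and *Col4a2* at 11312805 to 11449287 on the plus strand by the deposited coordinates, overlapping by 22 bases. Their start regions are shown because the pair shares this stretch of DNA, and with them that of *Col27a1*, the chain with the largest fold change of the 12 in APAP against control, which moved the other way. The windows run 5′ to 3′ on the gene's strand from 250 bases before to 50 bases after the start (RefSeq, GRCm38.p6: chr8:11312777-11313076 minus, chr8:11312555-11312854 plus and chr4:63215162-63215461 plus). The RefSeq start of *Col27a1* lies inside the deposited span of that gene. Capitals mark matches on either strand to 4 motifs, the GC box, the CCAAT box, the TATA box and the AP-1 motif.
Col4a1: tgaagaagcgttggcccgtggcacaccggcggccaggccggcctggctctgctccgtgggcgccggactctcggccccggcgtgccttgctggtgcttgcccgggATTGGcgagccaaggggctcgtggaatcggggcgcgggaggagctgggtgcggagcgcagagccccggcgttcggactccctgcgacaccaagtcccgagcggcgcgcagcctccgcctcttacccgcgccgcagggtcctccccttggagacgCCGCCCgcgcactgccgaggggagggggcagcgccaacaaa
Col4a2: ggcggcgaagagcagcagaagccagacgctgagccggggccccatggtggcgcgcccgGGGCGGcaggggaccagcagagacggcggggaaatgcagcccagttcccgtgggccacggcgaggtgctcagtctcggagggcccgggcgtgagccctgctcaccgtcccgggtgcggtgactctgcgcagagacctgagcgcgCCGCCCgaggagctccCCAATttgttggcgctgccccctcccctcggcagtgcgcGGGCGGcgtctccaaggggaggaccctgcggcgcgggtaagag
Col27a1: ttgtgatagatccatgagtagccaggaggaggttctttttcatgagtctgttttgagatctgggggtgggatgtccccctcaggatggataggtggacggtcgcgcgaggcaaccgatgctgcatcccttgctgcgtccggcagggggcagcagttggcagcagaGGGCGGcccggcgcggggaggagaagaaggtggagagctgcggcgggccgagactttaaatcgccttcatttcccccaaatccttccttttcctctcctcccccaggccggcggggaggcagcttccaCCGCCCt
The type IV windows overlap by 78 bases, with 74.0% and 73.7% G and C in *Col4a1* and *Col4a2*. The *Col4a1* window held 1 GC box (the letters GGGCGG) and 1 CCAAT box, that of *Col4a2* held 3 and 1, and that of *Col27a1* held 2 GC boxes and no CCAAT box. Windows were given for 40 of the 55 chains. The TATA box was searched as TATAAA, and none of these 3 windows held it. The AP-1 motif was searched as TGANTCA, where N is any base, and it too was in none of the 3. A GC box was found in 25 of the 40 genes, a CCAAT box in 14, a TATA box in 5 and an AP-1 motif in 1 (*Col6a1*), beside 38.2%, 41.1%, 15.7% and 9.0% of all 27025 genes with a window. Matches of one motif could overlap each other. A match is a description of the letters.

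*Col4a1* stood at 4.31 and 1.92 FPKM in COS+APAP, 10.53 and 8.84 FPKM in APAP, and 1.42 and 1.05 FPKM in control. The 3 groups did not overlap, and the COS+APAP libraries differed from each other by more than those of the other groups. It rose by 3.11 ± 0.42 (log2, SE) in APAP against control (adjusted p = 0.00384) and fell by 1.62 ± 0.40 in COS+APAP against APAP (adjusted p = 0.0395). In COS+APAP against control it stood at 1.49 ± 0.40 and missed the threshold (adjusted p = 0.0522), which it passed with DESeq2 (0.00261). *Col4a2* had 3.52 and 3.14 FPKM in COS+APAP, 7.45 and 6.12 FPKM in APAP, and 3.66 and 3.60 FPKM in control, with APAP above both other groups. It rose by 1.04 ± 0.15 in APAP against control (adjusted p = 0.00468), fell by 1.01 ± 0.15 in COS+APAP against APAP (adjusted p = 0.013) and stood at 0.03 ± 0.15 in COS+APAP against control (adjusted p = 0.903), a value that turned to -0.14 without scaling factors. The ratio of *Col4a1* to *Col4a2* FPKM within a library was 1.22 and 0.61 in COS+APAP, 1.41 and 1.44 in APAP, and 0.39 and 0.29 in control. The level of *Col4a1* was thus below that of *Col4a2* in control and above it in APAP. With 2 libraries a group, an exact permutation test of such a ratio could not give a p below 0.33. The 4 other type IV chains had means of 0.0117 to 0.215 FPKM, of which *Col4a5* was the highest. Without either COS+APAP library or APAP replicate 1 the *Col4a2* call in COS+APAP against APAP was lost (adjusted p = 0.0511 to 0.0652), and that of *Col4a1* was lost without COS+APAP replicate 3 or any library of the other groups (0.0587 to 0.15), with no filter on low values (0.0601) and in a fit of only the libraries compared (0.0587). Without COS+APAP replicate 3, *Col4a1* passed in COS+APAP against control (0.0311).

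Of the 3 laminin chains above the filter, *Lamc1* rose after APAP and fell in COS+APAP against APAP, *Lamb2* fell in the second comparison, and *Lamb3* was called by edgeR in neither. *Lamc1*, the gamma chain of most basement membrane laminins (chromosome 1, 153218922 to 153332786), had 0.90 and 1.00 FPKM in COS+APAP, 4.64 and 4.32 FPKM in APAP, and 0.89 and 0.81 FPKM in control. APAP libraries were above all others, and those of COS+APAP lay just above those of control. *Lamc1* rose by 2.54 ± 0.14 in APAP against control (adjusted p = 0.000949) and fell by 2.21 ± 0.14 in COS+APAP against APAP (adjusted p = 0.00341). Its value in COS+APAP against control was 0.33 ± 0.14 (adjusted p = 0.146). *Lamb2*, a beta chain known from vessels and the kidney filter, had 0.60 and 0.77 FPKM in COS+APAP, 1.42 and 1.31 FPKM in APAP, and 0.96 and 1.20 FPKM in control. It was lowest in COS+APAP and highest in APAP, without overlap. It fell by 0.98 ± 0.21 in COS+APAP against APAP (adjusted p = 0.0293), a call lost without any of these 4 libraries (0.0667 to 0.122) and with limma on log2(FPKM + 0.1) (0.0528), and did not pass in APAP against control (0.47 ± 0.21, adjusted p = 0.119) or in COS+APAP against control (-0.50 ± 0.21, adjusted p = 0.151). *Lamb3*, a chain of the epithelial laminin of skin, had 1.11 and 0.73 FPKM in COS+APAP, 3.60 and 1.17 FPKM in APAP, and 0.93 and 0.78 FPKM in control, so that its APAP mean rests on replicate 1. With all libraries it was called by edgeR in no comparison (1.63 ± 0.56, adjusted p = 0.06 in APAP against control; -1.38 ± 0.55, adjusted p = 0.131 in COS+APAP against APAP). Both values passed with DESeq2 (0.01 and 0.0436), and both passed without APAP replicate 3 (0.012 and 0.028). The *Lamb3* span also holds *G0s2* on the other strand, which had 54.6 and 56.5 FPKM in COS+APAP, 233.3 and 101.1 FPKM in APAP, and 92.2 and 213.0 FPKM in control, and *Hsd11b1* on that strand too, which had 49.1 and 39.9 FPKM in COS+APAP, 73.6 and 71.4 FPKM in APAP, and 63.1 and 52.0 FPKM in control. Whether reads of either entered the *Lamb3* value was not tested. Summed over the 11 laminin genes, levels were 4.52 and 4.40 FPKM in COS+APAP, 13.73 and 10.67 FPKM in APAP, and 5.45 and 5.37 FPKM in control.

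**Figure D3:**
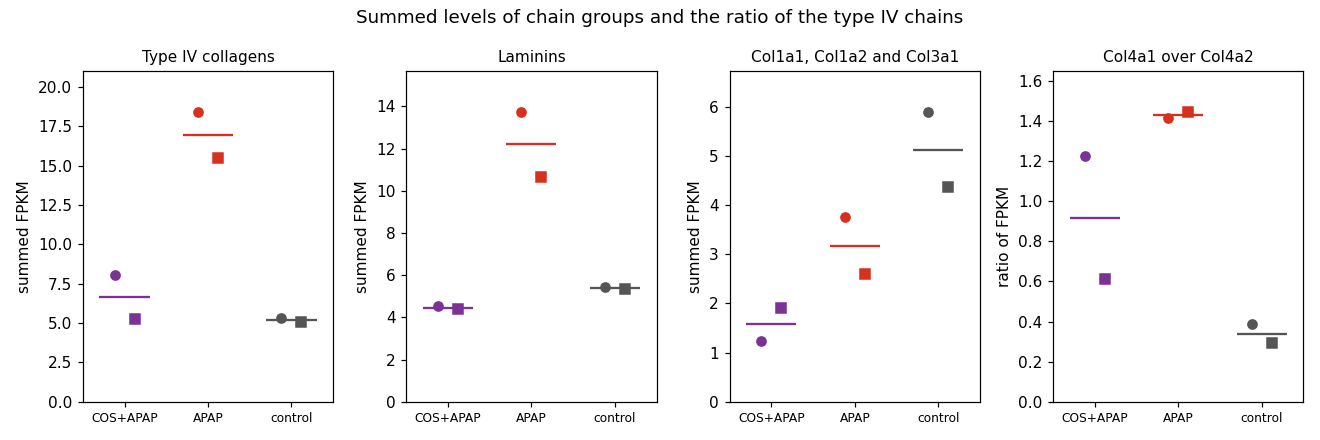
Summed FPKM of the 6 type IV collagens, of the 11 laminins and of Col1a1, Col1a2 and Col3a1, and the ratio of Col4a1 to Col4a2 FPKM, by group (COS+APAP, APAP, control). Points are libraries (circles, the lower replicate number; squares, replicate 3) and bars group means. Type IV and laminin sums are highest in APAP, and the sum of types I and III is highest in control.

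The 3 fibril-forming chains above the filter were highest in control. *Col27a1*, best known from cartilage (chromosome 4, 63214004 to 63333749), had 2.56 and 2.72 FPKM in COS+APAP, 0.60 and 0.54 FPKM in APAP, and 8.70 and 8.21 FPKM in control. The 3 groups lay far apart with libraries of a group close together. *Col27a1* fell by 3.75 ± 0.14 in APAP against control (adjusted p = 0.00069) and rose by 2.23 ± 0.13 in COS+APAP against APAP (adjusted p = 0.00341), and fell by 1.52 ± 0.12 in COS+APAP against control (adjusted p = 0.00347). *Col5a3*, a type V chain that takes part in starting fibrils, had 3.52 and 3.50 FPKM in COS+APAP, 3.73 and 3.60 FPKM in APAP, and 6.24 and 6.96 FPKM in control. Both APAP-treated groups lay below control and close to each other. It fell by 0.71 ± 0.12 in APAP against control (adjusted p = 0.00632) and by 0.75 ± 0.12 in COS+APAP against control (adjusted p = 0.0123), and stood at -0.05 ± 0.12 in COS+APAP against APAP (adjusted p = 0.798), a value that turned to 0.07 with upper quartile scaling. *Col3a1*, the type III chain of the reticular fibres that hold the lobule, had 0.55 and 0.69 FPKM in COS+APAP, 1.57 and 0.92 FPKM in APAP, and 2.77 and 2.27 FPKM in control, so that COS+APAP was lowest and control highest, without overlap. It fell by 1.87 ± 0.31 in COS+APAP against control (adjusted p = 0.0154). In APAP against control it stood at -0.87 ± 0.30 (adjusted p = 0.0631), and in COS+APAP against APAP at -0.99 ± 0.31 (adjusted p = 0.0719). The *Col3a1* value in APAP against control passed with DESeq2 (0.0262), with both limma fits (0.0294 and 0.0433), with upper quartile scaling (0.0401), without scaling factors (0.0314) and without APAP replicate 1 (0.0246), that in COS+APAP against APAP with DESeq2 (0.0153) and without APAP replicate 3 (0.0353), and the call against control was lost without any of the 4 libraries compared (0.053 to 0.0756). *Col5a3* lost its call in COS+APAP against control without either COS+APAP library or control replicate 3 (0.0571 to 0.0716).

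Type I collagen, the main fibre of scar tissue, stayed below the filter. *Col1a1* had 0.36 and 0.71 FPKM in COS+APAP, 1.02 and 0.63 FPKM in APAP, and 1.89 and 1.23 FPKM in control. *Col1a2*, its partner chain, had 0.33 and 0.51 FPKM in COS+APAP, 1.16 and 1.05 FPKM in APAP, and 1.23 and 0.87 FPKM in control. COS+APAP was lowest for *Col1a2* without overlap, whereas the COS+APAP and APAP libraries overlapped for *Col1a1*. Together *Col1a1*, *Col1a2* and *Col3a1* summed to 1.24 and 1.91 FPKM in COS+APAP, 3.75 and 2.60 FPKM in APAP, and 5.89 and 4.37 FPKM in control. In bulk tissue, fewer cells of a type and less RNA per cell cannot be told apart.

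Among fibril-associated and beaded-filament chains, *Col14a1*, which coats type I fibrils, had 1.20 and 1.15 FPKM in COS+APAP, 4.57 and 3.80 FPKM in APAP, and 3.73 and 2.89 FPKM in control. The COS+APAP libraries stood apart below the rest, and the APAP libraries lay just above those of control. *Col14a1* fell by 1.81 ± 0.19 in COS+APAP against APAP (adjusted p = 0.00697) and by 1.34 ± 0.19 in COS+APAP against control (adjusted p = 0.0102), and stood at 0.48 ± 0.18 in APAP against control (adjusted p = 0.0832). *Col6a1*, a chain of the type VI filaments around cells, had 1.36 and 1.20 FPKM in COS+APAP, 1.45 and 1.16 FPKM in APAP, and 2.69 and 2.76 FPKM in control. Both treated groups overlapped each other and lay below control. It fell by 0.92 ± 0.19 in APAP against control (adjusted p = 0.0125) and by 0.93 ± 0.19 in COS+APAP against control (adjusted p = 0.025), with -0.01 ± 0.19 in COS+APAP against APAP (adjusted p = 0.965), which turned to 0.10 with upper quartile scaling. The partner chains *Col6a2* and *Col6a3* were below the filter, at 0.13 to 0.26 FPKM in COS+APAP, 0.20 to 0.46 FPKM in APAP and 0.53 to 0.59 FPKM in control. The *Col14a1* call against control was lost without COS+APAP replicate 3 (0.0624), that of *Col6a1* in APAP against control without control replicate 3 (0.0523), and that of *Col6a1* in COS+APAP against control without any of the 4 libraries compared (0.0763 to 0.123).

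*Col13a1*, a transmembrane collagen of cell contacts, had 0.58 and 0.67 FPKM in COS+APAP, 2.47 and 2.88 FPKM in APAP, and 0.22 and 0.56 FPKM in control. Only APAP livers exceeded 1 FPKM. It rose by 2.89 ± 0.44 in APAP against control (adjusted p = 0.00534) and fell by 2.06 ± 0.43 in COS+APAP against APAP (adjusted p = 0.0259), and its value in COS+APAP against control was 0.83 ± 0.42 (adjusted p = 0.214). The *Col13a1* call in COS+APAP against APAP was lost without any of these 4 libraries (0.0824 to 0.117), and without control replicate 3 the value in COS+APAP against control passed (0.0386).

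Chains below the filter were read in a fit of all 26367 genes with a count above 0, which held 39 of them. In APAP against control, 2 rose and 4 fell, where 18.1% of all genes were called (9.17% higher and 8.97% lower). *Col15a1*, a basement membrane collagen of the same class as *Col18a1*, had 0.91 and 0.96 FPKM in COS+APAP, 0.32 and 0.23 FPKM in APAP, and 1.56 and 1.60 FPKM in control, the same order of groups as *Col27a1*. It fell by 2.39 ± 0.23 in APAP against control (adjusted p = 0.00261) and rose by 1.80 ± 0.23 in COS+APAP against APAP (adjusted p = 0.0144). *Col20a1* had 0.57 and 0.60 FPKM in COS+APAP, 0.33 and 0.33 FPKM in APAP, and 0.97 and 1.18 FPKM in control, again lowest in APAP, and fell by 1.56 ± 0.22 in APAP against control (adjusted p = 0.00653). *Lamc3*, a gamma chain, had 0.55 and 0.59 FPKM in COS+APAP, 1.73 and 1.31 FPKM in APAP, and 0.36 and 0.05 FPKM in control. Like *Lamc1* it was highest in APAP, and it rose by 3.02 ± 0.80 in APAP against control (adjusted p = 0.0479). *Lama5*, the alpha chain of adult vessel and epithelial basement membrane, had 0.69 and 0.63 FPKM in COS+APAP, 0.79 and 1.12 FPKM in APAP, and 0.53 and 0.64 FPKM in control, and rose by 0.85 ± 0.21 in APAP against control (adjusted p = 0.041). *Col6a3* (-1.15 ± 0.27, adjusted p = 0.0334) and *Lama1*, the alpha chain of early embryonic basement membrane (-1.77 ± 0.42, adjusted p = 0.0344), fell. *Lama1* had 0.13 and 0.05 FPKM in COS+APAP, 0.15 and 0.16 FPKM in APAP, and 0.50 and 0.66 FPKM in control.

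COS+APAP against APAP gave 1 of the 39 higher and 6 lower, where 7.55% of all genes were called (3.81% higher and 3.74% lower). Besides *Col15a1*, these were *Lamb1* (-1.29 ± 0.19, adjusted p = 0.0195), *Lama4*, the alpha chain of vessel walls (-1.92 ± 0.33, adjusted p = 0.027), *Col5a2* (-1.50 ± 0.28, adjusted p = 0.0316), *Col16a1* (-1.58 ± 0.31, adjusted p = 0.0373), *Col1a2* (-1.36 ± 0.29, adjusted p = 0.0429) and *Col4a5* (-1.58 ± 0.35, adjusted p = 0.0495). All of these changes are log2 fold changes. *Lama4* had 0.02 and 0.03 FPKM in COS+APAP, 0.11 and 0.12 FPKM in APAP, and 0.26 and 0.24 FPKM in control, from 23 and 36 estimated counts in COS+APAP, 111 and 122 in APAP, and 258 and 239 in control. *Lamb1*, the beta chain of most basement membrane laminins, had 0.25 and 0.28 FPKM in COS+APAP, 0.69 and 0.64 FPKM in APAP, and 0.58 and 0.60 FPKM in control, so that COS+APAP lay below both. In COS+APAP against control 5 of the 39 fell, where 5.87% of all genes were called (2.97% higher and 2.91% lower), namely *Lama4* (-2.87 ± 0.34, adjusted p = 0.0105), *Lama1* (-2.50 ± 0.44, adjusted p = 0.029), *Col16a1* (-1.85 ± 0.32, adjusted p = 0.0275), *Col6a3* (-1.65 ± 0.28, adjusted p = 0.0262) and *Lamb1* (-0.98 ± 0.19, adjusted p = 0.0408). Of the 18 calls of chains below the filter, those of *Col15a1* and *Col20a1* in APAP against control held without each library in turn, and the other 16 were each lost without at least 1 library (adjusted p = 0.0539 to 0.215). The calls of *Lama5* in APAP against control, of *Col16a1*, *Col1a2*, *Col4a5*, *Col5a2* and *Lama4* in COS+APAP against APAP, and of *Col16a1*, *Col6a3*, *Lama1* and *Lamb1* in COS+APAP against control were lost without any 1 of the 6. Those of *Col6a3* and *Lama1* in APAP against control, and of *Col15a1* and *Lamb1* in COS+APAP against APAP, were lost without any of the 4 libraries compared. The *Lamc3* call was lost without any library of COS+APAP or APAP (0.11 to 0.2075), and that of *Lama4* in COS+APAP against control without either COS+APAP library or control replicate 3 (0.0543 to 0.0714).

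**Figure D4:**
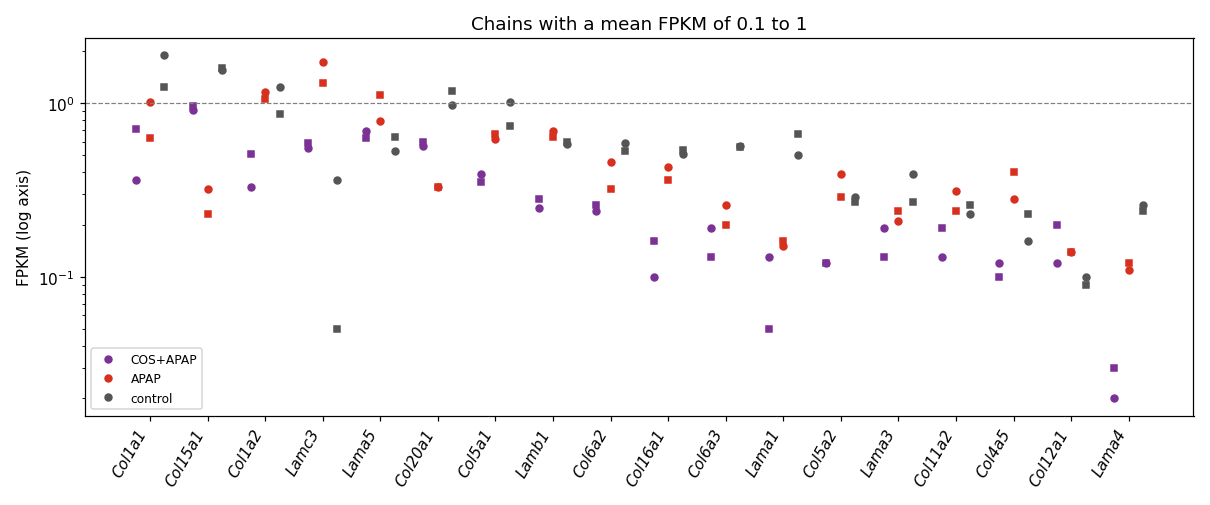
FPKM on a log axis of 18 chains with a mean of 0.1 to 1, in COS+APAP, APAP and control libraries (circles, the lower replicate number of the group; squares, replicate 3). The dashed line is 1 FPKM. COS+APAP points lie lowest for Col1a2, Lamb1, Col5a2, Col16a1 and Lama4, and APAP points lie lowest for Col15a1 and Col20a1.

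The partners of these chains in basement membranes gave 3 higher and 1 lower of 6 tested in APAP against control (median log2 fold change 0.18), 1 higher and 3 lower in COS+APAP against APAP (-1.09), and 2 lower in COS+APAP against control (-0.53). Of all genes tested, 23.3% were called higher and 22.1% lower in APAP against control. The shares were 11.2% and 11.1% in COS+APAP against APAP, and 10.7% and 10.3% in COS+APAP against control. *Nid1*, the nidogen that bridges laminin and type IV collagen, had 0.81 and 0.99 FPKM in COS+APAP, 13.25 and 8.84 FPKM in APAP, and 0.72 and 0.79 FPKM in control. Its order of groups was that of *Lamc1*, and like *Lamc1* it passed the filter through the APAP group alone, where it was high. The counts and medians of the list include *Nid1*. *Nid1* rose by 4.02 ± 0.27 in APAP against control (adjusted p = 0.00109) and fell by 3.60 ± 0.26 in COS+APAP against APAP (adjusted p = 0.00447). *Tinagl1* rose by 0.98 and fell by 1.75 in the same comparisons, and *Sparc*, a collagen-binding protein that the list of processing genes also holds, rose by 0.66, fell by 1.70 and, against control, fell by 1.03. *Nid2* fell by 0.96 in COS+APAP against control, and *Agrn*, the proteoglycan agrin, by 0.54 in APAP against control. *Hspg2*, the proteoglycan perlecan, lay below the filter at 0.37 and 0.30 FPKM in COS+APAP, 0.63 and 0.71 FPKM in APAP, and 0.84 and 1.11 FPKM in control. In the fit of all genes with a count above 0, it fell by 0.96 ± 0.20 in COS+APAP against APAP (adjusted p = 0.0438). There it also fell by 1.36 ± 0.21 in COS+APAP against control (adjusted p = 0.0196), and was not called in APAP against control (adjusted p = 0.247). The *Hspg2* calls were not checked with a library left out. The *Tinagl1* rise was lost without APAP replicate 1 or control replicate 1 (adjusted p = 0.088 and 0.0814), the *Sparc* fall against control without COS+APAP replicate 3 (0.0503), the *Nid2* fall without any of the 4 libraries compared (0.0598 to 0.0949), and the *Agrn* fall without any library but control replicate 1 (0.0555 to 0.128), with no filter (0.0580) and in a fit of only the libraries compared (0.0520). *Nid2* passed in APAP against control with upper quartile scaling, without scaling factors, with DESeq2 and with limma on log2(FPKM + 1) (0.0321 to 0.0430), and in COS+APAP against APAP with DESeq2 (0.0497).

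Genes that process and crosslink collagen did not move as one. Of 15 tested, 3 rose and 3 fell in each of the 3 comparisons, with medians of -0.05 in APAP against control, -0.18 in COS+APAP against APAP and 0.03 in COS+APAP against control. Beside them, 23.3% of all genes tested were called higher and 22.1% lower in APAP against control. The shares were 11.2% and 11.1% in COS+APAP against APAP, and 10.7% and 10.3% in COS+APAP against control. *Serpinh1*, the collagen chaperone HSP47, had 1.79 and 1.84 FPKM in COS+APAP, 3.59 and 2.72 FPKM in APAP, and 7.72 and 9.40 FPKM in control. Its order of groups was that of *Col3a1*, and *Serpinh1* fell by 1.296 ± 0.21 in APAP against control (adjusted p = 0.0059), by 0.78 in COS+APAP against APAP (adjusted p = 0.0477) and by 2.08 in COS+APAP against control (adjusted p = 0.00501). *P4ha1*, a catalytic subunit of prolyl hydroxylase, rose by 0.98 in APAP against control and fell by 1.22 in COS+APAP against APAP. *P4hb*, its partner subunit and a general disulfide isomerase, rose by 0.65 in COS+APAP against APAP and by 0.61 in COS+APAP against control. *Ppib*, a folding enzyme also used by other secreted proteins, fell by 1.10 in APAP against control and rose by 1.12 in COS+APAP against APAP. *Pcolce* fell by 1.10 and *P3h1* rose by 1.04 in COS+APAP against control. *P4ha2*, *Plod1* and *Plod3* passed in no comparison with edgeR and TMM scaling. *Plod1* passed in APAP against control with upper quartile scaling, without scaling factors, with DESeq2 and with both limma fits (0.0267 to 0.0341), and in COS+APAP against APAP with upper quartile scaling (0.0276) and DESeq2 (0.0108). *Plod3* passed in COS+APAP against control without scaling factors (0.0204), with DESeq2 (0.00438) and with both limma fits (0.0235 and 0.0238). *Plod2* and *Lox* lay below the filter, where *Lox*, a crosslinking enzyme, had 0.02 and 0.05 FPKM in COS+APAP, 0.84 and 0.30 FPKM in APAP, and 0.10 and 0.05 FPKM in control. In the fit of all genes with a count above 0, *Lox* rose by 3.02 ± 0.70 in APAP against control (adjusted p = 0.0307). There it fell by 3.93 ± 0.74 in COS+APAP against APAP (adjusted p = 0.0324), and *Plod2* was called in no comparison. The *Lox* calls rest on low values and were not checked with a library left out. The *Serpinh1* call in COS+APAP against APAP was lost without any library but APAP replicate 3 (0.0657 to 0.17), with upper quartile scaling (0.0677), with no filter on low values (0.0781), with limma on log2(FPKM + 1) (0.0540) and in a fit of only the libraries compared (0.0747). *P4ha1* lost its rise without control replicate 3 or either APAP library (0.0562 to 0.0999) and its fall without any of the 4 libraries compared (0.0579 to 0.104). *P4hb* lost its rise against APAP without any of the 4 libraries compared (0.0851 to 0.128) and that against control without any library but control replicate 1 (0.0736 to 0.14), and also without scaling factors, with no filter, with both limma fits and in a fit of only the libraries compared (0.0606 to 0.0781). Against control, *Pcolce* lost its call without any library but COS+APAP replicate 2 (0.0561 to 0.114), with no filter (0.0608) and in a fit of only the libraries compared (0.0563), and *P3h1* without COS+APAP replicate 3 or control replicate 3 (0.087 and 0.0642).

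Of the TGF-beta pathway, the main inducer of collagen genes in scarring liver, 9 of 12 tested rose in APAP against control (median 0.79), 10 fell in COS+APAP against APAP (-1.43), and 2 rose and 1 fell in COS+APAP against control (-0.06). Over all genes tested, 23.3% were called higher and 22.1% lower in the first comparison, 11.2% and 11.1% in the second, and 10.7% and 10.3% in the third. The same shares stand beside the counts of the proteases, fibrous matrix genes and receptors below. The ligands *Tgfb1*, *Tgfb2* and *Tgfb3* lay below the filter, as did *Tgfbr3*, *Smad2*, *Skil*, *Ltbp1*, *Ltbp2*, *Ltbp3* and *Bambi*. *Ccn2*, *Smad7* and *Ltbp4* were not called in APAP against control (adjusted p = 0.193, 0.355 and 0.1545). *Thbs1*, thrombospondin, an activator of latent TGF-beta, had 0.06 and 0.06 FPKM in COS+APAP, 7.69 and 3.64 FPKM in APAP, and 0.20 and 0.10 FPKM in control. It passed the filter through the APAP group alone, where it was high, and is among the genes counted. *Ccn1* changed by 2.75 and -2.78 and *Tgif1* by 2.33 and -1.84 in APAP against control and in COS+APAP against APAP. *Tgif1* and *Ski* are inhibitors of the pathway, and both are counted among the genes that rose and those that fell. The counts therefore do not measure pathway activity, which was not tested. In COS+APAP against control the receptors *Tgfbr2* and *Tgfbr1* rose by 0.83 and 0.49, and the signal transducer *Smad3* fell by 0.73. Among the 7 tested matrix proteases and inhibitors, 5 rose and 2 fell in APAP against control, 1 rose and 5 fell in COS+APAP against APAP, and 2 rose and 4 fell in COS+APAP against control, with medians of 0.96, -1.65 and -0.78. Of these, *Adamts1* changed by 3.75 and -2.92 in the first and the second comparison, *Timp3*, an inhibitor of metalloproteases, by -2.07 in the second, *Mmp14* by 0.91 in the third, and *Mmp15* by -1.55 in the first and -2.29 in the third. Of 7 non-collagen fibrous matrix genes, 5 rose in APAP against control, 1 rose and 4 fell in COS+APAP against APAP, and 2 rose and 1 fell in COS+APAP against control, with medians of 0.66, -1.14 and -0.48. *Fn1*, the fibronectin that hepatocytes secrete into plasma, had 99.9 and 102.9 FPKM in COS+APAP, 71.4 and 89.6 FPKM in APAP, and 56.1 and 46.0 FPKM in control. Its level was highest in COS+APAP, where *Col3a1* and *Col1a2* were lowest, with a log2 fold change of 0.79 in APAP against control, 0.35 in COS+APAP against APAP (adjusted p = 0.174) and 1.14 in COS+APAP against control. The collagen-binding proteoglycans *Lum* and *Dcn* fell by 1.78 and 1.38 in COS+APAP against APAP, where *Emilin1* fell by 1.42. In APAP against control *Emilin1* and *Lum* had risen by 0.94 and 0.91, and in COS+APAP against control *Dcn* fell by 0.85 and *Vtn* rose by 0.66. Of 5 tested receptors of collagen and laminin, *Itgb1*, the shared beta subunit of these integrins, rose by 0.93 in APAP against control, and in COS+APAP against APAP *Itgb1* (-0.76), *Bcam* (-1.33) and *Itga3* (-1.19) fell and *Itga7* rose by 0.85, with medians of 0.79, -0.76 and -0.11 in the 3 comparisons. None of these receptors was called by edgeR in COS+APAP against control, where 1 was higher at an unadjusted p under 0.05 and DESeq2 called 1. In COS+APAP against APAP, *Ccn1* lost its call without APAP replicate 1 (adjusted p = 0.0584), *Bcam* and *Itga3* without either COS+APAP library or APAP replicate 1 (0.102 to 0.123), *Itga7* without any of the 4 libraries compared (0.0644 to 0.152), *Lum* without COS+APAP replicate 3 or either APAP library (0.0504 to 0.0579) and *Emilin1* without either APAP library (0.0558 and 0.063). In APAP against control, *Emilin1* and *Lum* lost theirs without any of the 4 libraries compared (0.0686 to 0.158) and *Fn1* without APAP replicate 3 or control replicate 3 (0.0617 and 0.0535). The *Tgfbr1* and *Vtn* calls in COS+APAP against control were lost without any of the 6 libraries (0.0538 to 0.13), those of *Tgfbr2* and *Smad3* without any of the 4 compared (0.0728 to 0.154), that of *Dcn* without COS+APAP replicate 3 or either control library (0.0664 to 0.0956) and that of *Fn1* without COS+APAP replicate 3 (0.0564). With all libraries, *Tgfbr1* also lost its call without scaling factors, with no filter, with both limma fits and in a fit of only the libraries compared (0.0700 to 0.14), *Tgfbr2* with no filter and both limma fits (0.0592 to 0.0904), *Smad3* with no filter (0.0814) and in a fit of only the libraries compared (0.0501), and *Vtn* in that fit (0.0537). *Itga7* in COS+APAP against APAP lost its call without scaling factors, with no filter and with both limma fits (0.0503 to 0.0668). *Lum* in APAP against control lost its call with upper quartile scaling, without scaling factors, with no filter and with limma on log2(FPKM + 0.1) (0.0673 to 0.0777).

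Sums of marker genes are given for the cell types that a liver piece can hold. Beside the counts of markers called, 23.3% of all genes tested were higher and 22.1% lower in APAP against control. The shares were 11.2% and 11.1% in COS+APAP against APAP, and 10.7% and 10.3% in COS+APAP against control. The 9 stellate cell markers summed to 54.7 and 32.1 FPKM in COS+APAP, 90.3 and 86.5 FPKM in APAP, and 79.0 and 74.6 FPKM in control, and of 5 tested 2 rose in APAP against control, 4 fell in COS+APAP against APAP and 3 fell in COS+APAP against control. The 6 myofibroblast and smooth muscle markers summed to 2.56 and 2.06 FPKM in COS+APAP, 25.5 and 10.8 FPKM in APAP, and 6.82 and 4.91 FPKM in control, and of 3 tested 2 rose in APAP against control and 3 fell in COS+APAP against APAP. For both lists the COS+APAP libraries were the lowest, as for *Col1a2*, *Col3a1* and *Col14a1*. This was not particular to these lists, since COS+APAP was also lowest for the sinusoidal endothelial and cholangiocyte lists that follow. The stellate list holds *Dcn* and *Ecm1*, which the list of non-collagen fibrous matrix genes also holds. Of its sum, *Ecm1* alone made up 34.29 and 16.71 FPKM in COS+APAP, 39.85 and 41.53 FPKM in APAP, and 41.52 and 36.53 FPKM in control. The 8 sinusoidal endothelial markers summed to 23.8 and 21.8 FPKM in COS+APAP, 38.1 and 36.5 FPKM in APAP, and 27.4 and 32.5 FPKM in control, with 3 of 8 higher in APAP against control, 1 higher and 5 lower in COS+APAP against APAP, and 1 higher and 3 lower in COS+APAP against control. The 6 cholangiocyte markers summed to 20.2 and 21.1 FPKM in COS+APAP, 51.6 and 35.6 FPKM in APAP, and 28.8 and 35.0 FPKM in control, and of 3 tested 1 rose in APAP against control and 2 fell in COS+APAP against APAP. The 5 adipose markers summed to 5.64 and 4.83 FPKM in COS+APAP, 11.33 and 5.77 FPKM in APAP, and 2.60 and 2.40 FPKM in control. Portal fibroblast markers summed to 4.18 and 4.54 FPKM in COS+APAP, 3.95 and 2.56 FPKM in APAP, and 4.57 and 2.29 FPKM in control. For this list COS+APAP was not the lowest group. Mesothelial markers, with *Krt14* at 0, summed to 0.89 to 1.73 FPKM over all libraries. The 4 erythroid markers summed to 190.3 and 197.3 FPKM in COS+APAP, 901.4 and 651.5 FPKM in APAP, and 181.9 and 157.6 FPKM in control, highest in APAP as were *Col4a2* and *Lamc1*. The 6 hepatocyte markers summed to 48650 and 46090 FPKM in COS+APAP, 59330 and 57600 FPKM in APAP, and 50490 and 49090 FPKM in control. Singly they did not move as one in APAP against control, where 1 rose, 2 fell and 3 were not called. In COS+APAP against APAP 1 rose and 5 were not called, and the same counts held in COS+APAP against control. The 5 Kupffer cell markers summed to 64.5 and 70.0 FPKM in COS+APAP, 54.8 and 78.7 FPKM in APAP, and 51.8 and 47.3 FPKM in control. Both treated groups lay above control there. The part of these cell types in the differences of the chains was not tested.

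**Figure D5:**
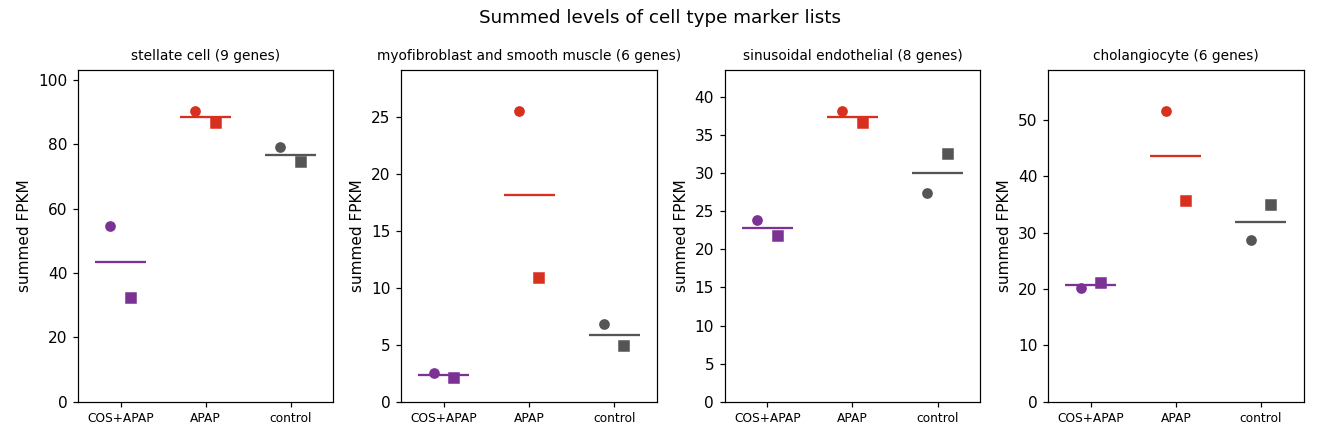
Summed FPKM of the marker lists of stellate cells, of myofibroblasts and smooth muscle, of sinusoidal endothelial cells and of cholangiocytes, by group (COS+APAP, APAP, control). Points are libraries (circles, the lower replicate number; squares, replicate 3) and bars group means. APAP is highest in each panel, and COS+APAP is lowest.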

How the data were processed

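The chains and the gene lists were chosen with earlier results of these data known. The submitters' processing notes name HISAT2 2.0 and StringTie 1.3.0, and neither the build nor strand-specific counting is named in the labels or headers. Coordinates of 49 of the 55 chains equal those of GENCODE mouse release M21. For each library the table holds whole-number estimated counts and FPKM values, both as the authors deposited them. Multiples of 4 made up 31.6% to 35.6% of counts of 1 to 40 in a library, and why was not tested. Another 6 value columns matched no sample and were left out.

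The estimated counts of the 10051 genes averaging 1 FPKM or more were tested with edgeR 4.0.16 (R 4.3.3) by the two-sided quasi-likelihood F test with TMM scaling, 1 model of 3 groups, and Benjamini-Hochberg adjustment, called at an adjusted p below 0.05. The SE is the absolute log2 fold change over the square root of F. The script was tested on simulated data. Alternatives were DESeq2 1.42.0, limma 3.58.1 on log2(FPKM + 1) and log2(FPKM + 0.1), other scalings and filters, counts divided by 4, fits of only the libraries compared, a replicate block and leaving out each library. Leaving out libraries without the filter, and counts without the chains that passed through 1 group alone, were added after seeing the data. Chains above the filter were described singly. Chains below it are given as counts and ranges, and those named were the 5 highest and, after their values were seen, the called ones, type VI partners and neighbouring chains. From each partner list, the 3 called genes with the largest change per comparison were named, plus Serpinh1, P4ha1, P4ha2, P4hb, Plod1, Plod2, Plod3, Lox, Nid1, Nid2, Hspg2 and Agrn. Some genes that these rules would name are not reported here.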

Additional observations from a re-analysis of the deposited data

How the results depend on the processing

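The calls of 7, 7 and 5 of 12 in APAP against control, COS+APAP against APAP and COS+APAP against control became 13, 13 and 10 of 51 with no filter on low values. There 18.1%, 7.55% and 5.87% of all 26367 genes were called. With a mean FPKM of at least 0.5 they became 11, 11 and 8 of 20, where 5113, 2586 and 2187 of all 12248 genes were called. Leaving out each library in turn gave 6 to 8, 3 to 6 and 2 to 5. Of the 19 calls among the 12 chains, 10 held without each library. Other scalings, DESeq2, both limma fits, counts divided by 4 and fits of only the libraries compared gave 7 to 9, 6 to 9 and 5 to 6. With the replicate block (numbers 1 and 3 shared by APAP and control), 8 of 12 chains and 3334 genes were called, in place of 7 and 4561, *Col3a1* being the chain gained. Deviations of libraries with the same number correlated at 0.017, so the numbers are not taken as pairs. No paired analysis was possible for the other comparisons because their groups share only number 3.

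The named values that turned sign were all uncalled. In COS+APAP against APAP, *Col5a3* and *Col6a1* stood at 0.066 and 0.10 with upper quartile scaling, and at -0.097 to 0.0093 and -0.187 to 0.187 with a library left out. In COS+APAP against control, without scaling factors, with limma at a pseudocount of 1 and with limma at 0.1, *Col18a1* stood at -0.065, -0.028 and -0.028, *Col4a2* at -0.14, -0.10 and -0.12, *P4ha2* at -0.13, -0.061 and -0.11, and *Plod1* at -0.067, -0.041 and -0.046. With a library left out, *Col18a1* ranged over -0.106 to 0.363, *Col4a2* over -0.042 to 0.0998, *Lamb3* over -0.077 to 0.517, *P4ha1* over -0.461 to 0.020, *P4ha2* over -0.141 to 0.213 and *Plod1* over -0.0084 to 0.233, and in APAP against control *P4hb* over -0.170 to 0.089. The cause was not tested.

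Over all genes, the 4561, 2249 and 2109 calls became 3033 to 4117, 612 to 1941 and 590 to 1716 with a library left out, and 5470, 3552 and 3422 with DESeq2. Without scaling factors the median log2 fold change of all genes moved to -0.15, -0.02 and -0.16.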

Other observations

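Several chains lie next to each other in the genome, and the neighbours' levels are given as values. *Col5a2* lies 24614 bases from *Col3a1* on the other strand and had 0.12 and 0.12 FPKM in COS+APAP, 0.39 and 0.29 FPKM in APAP, and 0.29 and 0.27 FPKM in control. The ratio of *Col3a1* to *Col5a2* FPKM was 4.58 and 5.75 in COS+APAP, 4.03 and 3.17 in APAP, and 9.55 and 8.41 in control. *Col4a3* and *Col4a4*, the head-to-head pair on chromosome 1 with 71 bases between them, had means of 0.0517 and 0.06 FPKM.

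The pseudogene *Gm8818* lies inside *Lamc1* on the other strand and had 0.28 and 1.20 FPKM in COS+APAP, 4.37 and 1.89 FPKM in APAP, and 0.00 and 0.03 FPKM in control. The microRNA gene *Gm47302*, inside *Col3a1* on its strand, had 0.00 and 0.00 FPKM in COS+APAP, 2.90 and 1.58 FPKM in APAP, and 0.05 and 0.52 FPKM in control, an order of groups unlike that of *Col3a1*. The ratio of *Lamc1* to *Lamb1* FPKM was 3.60 and 3.57 in COS+APAP, 6.72 and 6.75 in APAP, and 1.53 and 1.35 in control.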
